A study of Sus scrofa domesticus with 6 samples.

Results

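The epidermal growth factor (EGF) family was followed through 7 genes in pig lung: the ligands AREG (amphiregulin), EREG (epiregulin), HBEGF (heparin-binding EGF-like growth factor) and TGFA (transforming growth factor alpha), and the receptors EGFR, ERBB2 and ERBB3. The members are the feature rows that carry exactly these names, 7 of the 33025 features listed in any library, and all 7 were listed in each of the 6 libraries. The libraries hold single-cell RNA of domestic pigs (Sus scrofa domesticus), whose breed, sex and age the labels do not give. The 3 control libraries are unsorted cell suspensions of the donors' right lungs, sampled after retrograde perfusion. The other libraries come from the graft of an orthotopic transplant of 1 lung, which had been kept cold without blood flow for 24 hours and was harvested 8 hours into warm reperfusion (IRI, ischemia-reperfusion injury). In 2 IRI libraries live cells had been sorted for CD45, the surface protein of leukocytes (IRI CD45+), and in 1 for its absence (IRI CD45-). Injury and sorting therefore changed together in every comparison and cannot be told apart, and leukocytes of the graft donor and of the recipient cannot be told apart within a graft.

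EGF ligands are made as membrane proteins and are released by cleavage, chiefly by the protease ADAM17. They bind receptors of the ERBB family, which act in pairs: EGFR binds all 4 ligands studied here, ERBB2 has no known ligand and serves as partner, and ERBB3 binds neuregulins and has a weak kinase of its own. In the lung the pathway is known for repair of the epithelium, in which alveolar type 2 (AT2) cells, the surfactant producers, divide and give rise to the flat alveolar type 1 (AT1) cells. AREG is also known as a product of myeloid and innate lymphoid cells in wounded tissue, and HBEGF as a product of macrophages.

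After filtering, 4682, 6347 and 6133 control cells, 4531 and 4066 IRI CD45+ cells and 15017 IRI CD45- cells remained, with a median of 1964 to 3197 UMIs (unique molecular identifiers, each standing for 1 captured RNA molecule) per cell. Cell classes were named from marker genes and carry the ending "-like", and 8.12% to 32.6% of a library's cells stayed unnamed. Of the cells in the IRI CD45- library 12.6% belonged to immune classes in spite of the sort. Classes were used in a library where they had at least 20 cells: AT1-, basal- and secretory-like cells were thus seen in the IRI CD45- library only, AT2-like cells there (8088) and in control 1 (20), and monocyte- and neutrophil-like cells in IRI libraries only. The level of a gene is given as CPM, the gene's UMIs per 1000000 UMIs of all cells of a class in a library, and shares of cells with their exact Clopper-Pearson 95% interval; intervals cover counting error only. Levels were compared between classes and libraries within a gene, not between genes.

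Several facts of the libraries touch the results below. SFTPC, the AT2 surfactant gene, had a UMI in at least 99.3% of the cells of every named class of the IRI CD45- library, from 5866 CPM in T-like to 118657 CPM in AT2-like cells, against 0 to 224 CPM in the classes of the other libraries outside the AT2-like class. Control and IRI libraries were not counted alike: the IRI libraries list no mitochondrial gene and hold cells down to 74 UMIs, whereas no control cell had fewer than 1001. ERBB4, the remaining ERBB receptor, with a span of 1130 kb, had UMIs in all 43 control class sums (median 13.9 CPM) and none in 17 of 20 IRI CD45+ and 11 of 17 IRI CD45- sums. Genes that span over 100 kb, among them EGFR (172 kb) and TGFA (106 kb), had a median log2 change between -1.64 and -0.25 in the 13 classes compared, against -0.37 to 0.29 for genes of 10 to 30 kb. The other members span 10.2 kb (AREG) to 29.8 kb (ERBB2). In the build Sscrofa11.1, by RefSeq's annotation, EREG (70351316 to 70372530) and AREG (70417935 to 70428106) are neighbours on chromosome 8, HBEGF lies on chromosome 2 (142102455 to 142115192), TGFA on chromosome 3 (71948232 to 72054257), EGFR on chromosome 9 (139302410 to 139474632), ERBB2 on chromosome 12 (22591621 to 22621384) and ERBB3 on chromosome 5 (21474218 to 21495040).

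**Figure D1:**
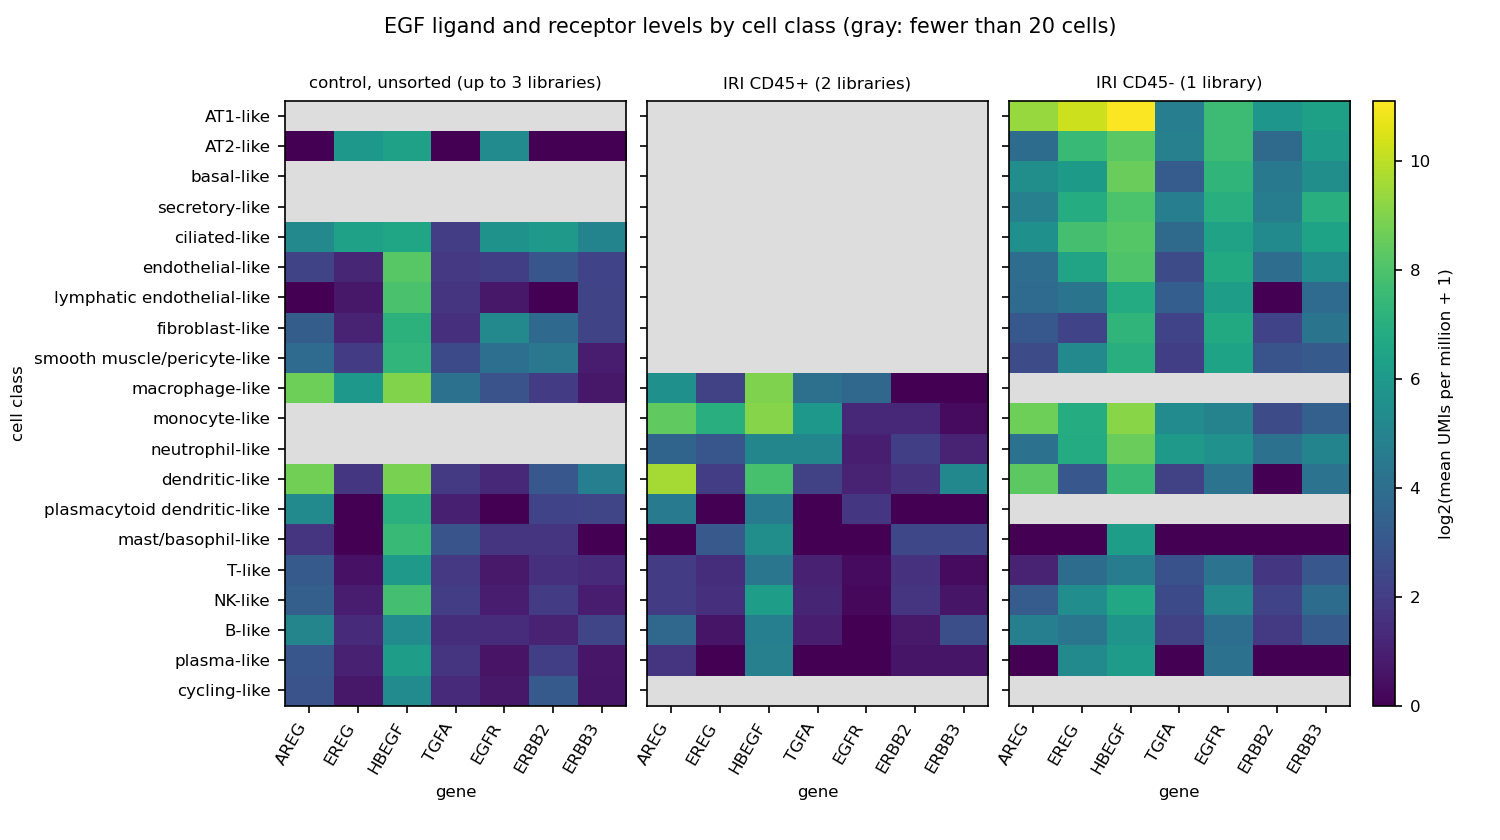
Level of each ligand and receptor (columns) in each cell class (rows) as log2(mean CPM + 1), in the control, IRI CD45+ and IRI CD45- libraries; gray marks classes with fewer than 20 cells. HBEGF was detected in every class shown, AREG was highest in myeloid classes and AT1-like cells, and in the IRI CD45- library the highest values of EGFR and ERBB3 were in epithelial classes.

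In control lung AREG and HBEGF were highest in macrophage- and dendritic-like cells, EREG in ciliated- and macrophage-like cells, and TGFA in macrophage-like cells. EGFR and ERBB2 were highest in ciliated-like cells in controls 2 and 3. In control 1 these cells had EGFR at 22.4 CPM (3 UMIs), below AT2-like (40.2, 2 UMIs) and fibroblast-like cells (39.1). Their ERBB2 there was 14.9 (2 UMIs), below the 37.6 of smooth muscle/pericyte-like cells. ERBB3 was highest in ciliated- and dendritic-like cells, whose values overlap. Among classes with more than 20 cells, fibroblast-like cells followed for EGFR in controls 2 and 3. The injured graft had high levels of AREG, EREG and HBEGF in AT1-like cells as well. Levels of control and IRI libraries were compared in 13 classes by edgeR's quasi-likelihood test on summed UMIs, adjusted over all genes tested in the class. Among 8 immune classes (control against IRI CD45+), 20 of 56 pairs of gene and class had enough UMIs to be tested, and 13 of these changed, 1 upward and 12 downward. That is 65.0% of the pairs tested, where 41% of all gene tests in these classes were called. Of the 12 falls, 4 are in lymphoid classes at levels not told apart from background below, and 1 is in the plasma-like cells that serve as the free RNA reference. Among 5 structural classes (control against the lone IRI CD45- library, assumed to vary as the controls do), 20 of 35 pairs were tested and 10 changed, 9 upward and 1 downward, 50% against 26.6% of all gene tests. As nothing says that the libraries come from separate animals, these p-values measure only the spread between the samples.

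**Figure D2:**
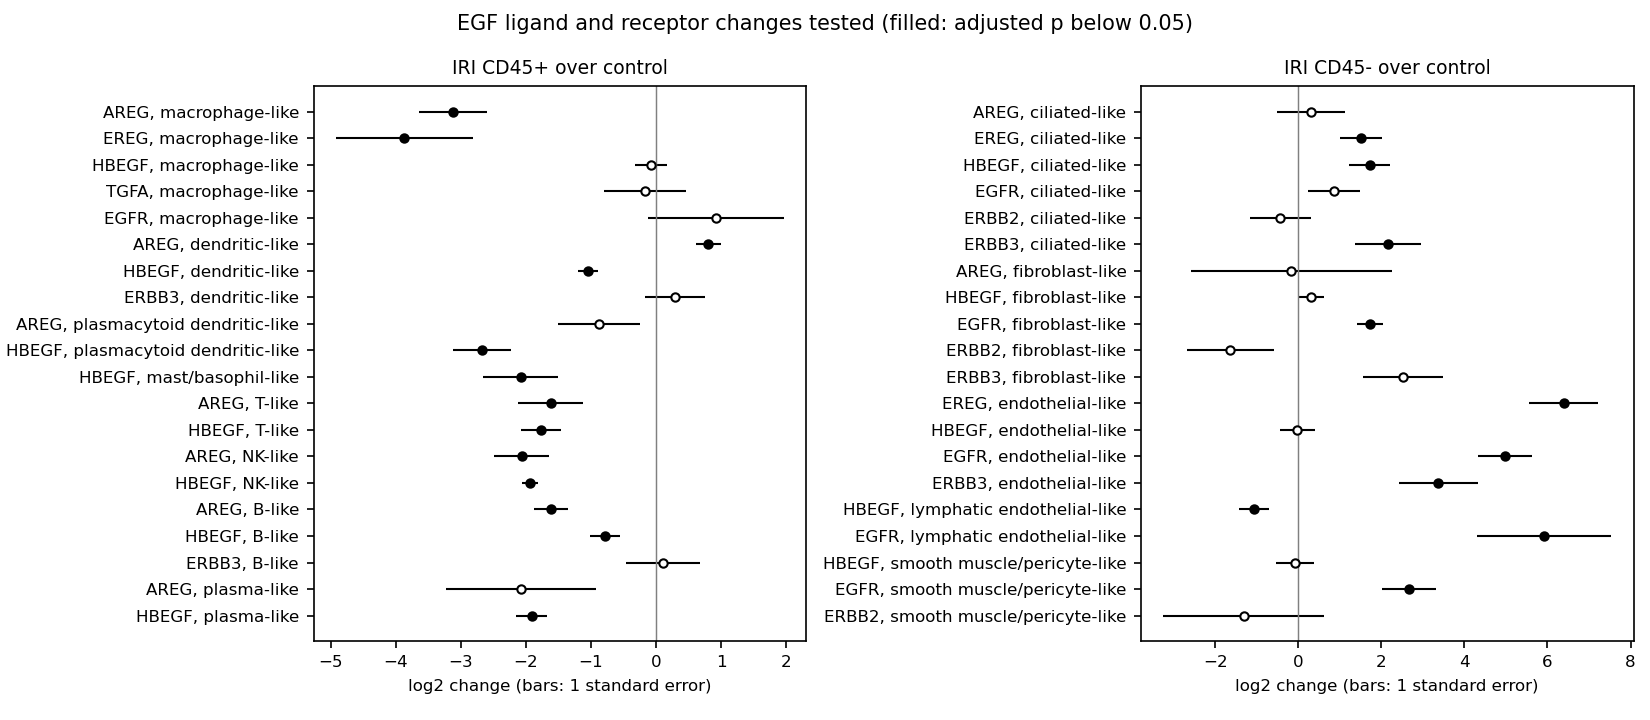
Log2 change of every tested pair of gene and class, IRI CD45+ over control (left, immune classes) and IRI CD45- over control (right, structural classes); bars are 1 standard error and filled points have an adjusted p below 0.05. On the left 12 of the 13 filled points lie below 0, and on the right 9 of the 10 lie above 0.

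AREG, a ligand that macrophages and dendritic cells can release, fell in macrophage-like and rose in dendritic-like cells. In macrophage-like cells it stood at 300.4, 669 and 249.6 CPM in the 3 controls, and at 49.5 and 44.2 after IRI (CD45+). All IRI values lay below all control values. The fall was -3.13 ± 0.52 (SE) on the log2 scale, with an adjusted p of 0.0052, and 26.1% of all genes tested in this class were called. It rested on 4460 control and 34 IRI UMIs, the latter from 37 and 33 cells. Without IRI CD45+ 1 the change was -3.27 with an adjusted p of 0.183, and without IRI CD45+ 2 it was -3.09 with an adjusted p of 0.158. The share of macrophage-like cells with an AREG UMI was 41.7% (35.8 to 47.7), 46.7% (41.9 to 51.5) and 22.5% (18.6 to 26.8) of control cells, against 8.11% (1.70 to 21.9) and 12.1% (3.40 to 28.2) of IRI CD45+ cells, although the IRI cells were deeper (median 10827 and 8566 UMIs against 5685 to 7043). Thinned to 1000 UMIs per cell, the shares were 22.8%, 26.3% and 13.03% against 2.70% and 0%. Plasma-like cells, taken as the background of free RNA, had AREG in 2.14% to 5.98% of control cells (median depth 7218 to 8030.5 UMIs), and 0.53% to 0.92% once thinned.

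The macrophage-like cells of the 2 conditions lay largely in different parts of clusters. Of the IRI cells 70.3% and 81.8% lay in a part led by MMP1, SFTPC, MT1X and IL10 that held no control cell, with AREG at 44.5 and 53.0 CPM. In the controls AREG varied widely between parts. It reached 1114 and 2040 CPM in controls 1 and 2 in a part led by IL1R2 and THBS1, and 511, 1340 and 661 in the part led by JCHAIN, CA4 and IGHM, whose leading genes are those of other cells. It was lower, at 136, 353 and 32.7, in the part led by CXCL9, FOLR2 and C1QA, and at 0 to 143 in cluster 16, led by FCN2, LCN2 and DUOX2. With cluster 13 alone, which holds all these parts except those of cluster 16, the fall was -3.07, with an adjusted p of 0.0016. All 13 macrophage markers were detected in every control, 11 of the 12 listed in IRI CD45+ 1 (MARCO at 0) and all 12 in IRI CD45+ 2, with sums of 9566 to 12042 CPM in controls and 13335 and 16176 in IRI. Monocyte markers summed to 2842 to 4582 CPM in the control class and 3664 and 1507 in the IRI class, with VCAN at 0 in IRI CD45+ 2; their part in the result was not tested.

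Dendritic-like cells went the other way. Their AREG level was 378, 531 and 383 CPM in the controls, against 958 and 608 after IRI (CD45+), without overlap. The rise was 0.80 ± 0.19 on the log2 scale (adjusted p = 0.0063), with 34.7% of genes called in this class. In the IRI CD45- library it was 318 (255 to 391), below both IRI CD45+ libraries and also below all 3 controls, so that this graft library, which was not in the test, did not share the rise. A UMI was found in 46.5%, 52.4% and 49.8% of control, 61.1% and 63.8% of IRI CD45+ and 44.6% of IRI CD45- cells. Within the controls AREG was high, at 762, 1150 and 699.5 CPM (values of controls 1 to 3), in the part led by FCER1A, CSF1R and MRC1, and low, at 128, 153 and 131, in the part led by XCR1, a marker of cross-presenting dendritic cells. Of the IRI CD45+ cells 83.3% and 93.1% lay in another part, led by SFTPC, TGM3, ARG1 and IL2RA, with AREG at 1126 and 636. That part held no control cell, and its leading genes include no dendritic marker. SFTPC stood at 0 and 1.75 CPM in the IRI CD45+ dendritic-like cells and at 6283 in those of the IRI CD45- library. Dendritic markers summed to 3436 to 3697 CPM in the controls and to 7015 and 5404 in the IRI CD45+ libraries, where 8 of 9 listed (FCER1A at 0) and 9 of 10 (CLEC10A at 0) had a UMI. Macrophage markers summed to 149 to 203 against 125 and 137, and monocyte markers to 178 to 208 against 208 and 315; their part in the result was not tested. The changes of the 2 classes differed by -3.92 ± 0.32 (macrophage- minus dendritic-like, log2, adjusted p = 2.51e-06) in a fit with both classes, in which 3.65% of genes were called. Leaving out each library in turn gave -4.12 to -3.65, past the threshold each time. For HBEGF the difference was 0.94 ± 0.25 (adjusted p = 0.05003) and for EREG -4.34 (adjusted p = 0.108).

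Monocyte- and AT1-like cells of the graft also had high AREG levels. Monocyte-like cells, led by ARG1, F13A1 and CCR1, held 329 and 338 CPM in IRI CD45+, and 398 among the CD45- cells. The controls had 2, 1 and 0 such cells, so no change could be tested. AT1-like cells held 661 CPM (567 to 765) and had a UMI in 28.4% of 285 cells, at a median depth of 803 UMIs. AT2-like cells of the same library were at 14.0 CPM (12.5 to 15.7). In controls, macrophage-like cells held 49.9%, 57.4% and 49.5% of a library's AREG UMIs and dendritic-like cells 35.0%, 32.4% and 38.3%. In the IRI CD45+ libraries macrophage-like cells held 2.20% and 0.56%, monocyte-like cells 27.7% and 64.2%, dendritic-like cells 43.7% and 16.3%, and unnamed cells 20.4% and 15.3%. In the IRI CD45- library the largest share, 21.3%, lay in the many AT2-like cells at their low level, followed by monocyte-like and unnamed cells (both 17.0%), AT1-like (12.2%) and ciliated-like cells (11.8%). The sort and the numbers of cells captured enter these shares.

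Lymphocytes held little AREG, and their sums were lower in the IRI CD45+ libraries. In B-like cells it was 28.0, 34.3 and 34.2 CPM in controls and 13.3 and 11.0 in IRI CD45+ libraries (log2 -1.62 ± 0.27, adjusted p = 4.25e-05; 46.7% of genes called). In NK-like cells 6.55, 11.4 and 9.57 stood against 2.27 and 3.37 (-2.06 ± 0.42, adjusted p = 0.00035; 59.5% called). NK-like cells also carried T markers, and their clusters differed between conditions. In T-like cells 10.4, 7.25 and 6.04 stood against 1.35 and 4.29 (-1.62 ± 0.50, adjusted p = 0.0115; 53.3% called), again from different clusters. Control NK- and T-like cells had AREG in 1.04% to 2.22% of cells, and in 0.45% to 1.17% once thinned to 1000 UMIs, at or near the share of plasma-like cells, so these 2 levels are read as background. The call in T-like cells was lost without IRI CD45+ 1 (-0.91, adjusted p = 0.137), without control 1 (-1.38, adjusted p = 0.0626), with DESeq2 and with thinned sums (adjusted p = 0.0747). AREG did not pass the test in plasmacytoid dendritic-like cells (39.7, 37.3 and 36.4 against 5.33 and 38.4), where it would without IRI CD45+ 2 (-2.97, adjusted p = 0.0267). Nor did it in plasma-like cells (6.09, 12.1 and 2.28 against 0 and 4.38), where it would without control 3 (-2.52, adjusted p = 0.0372). The 0 there allows up to 3.35 CPM.

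**Figure D3:**
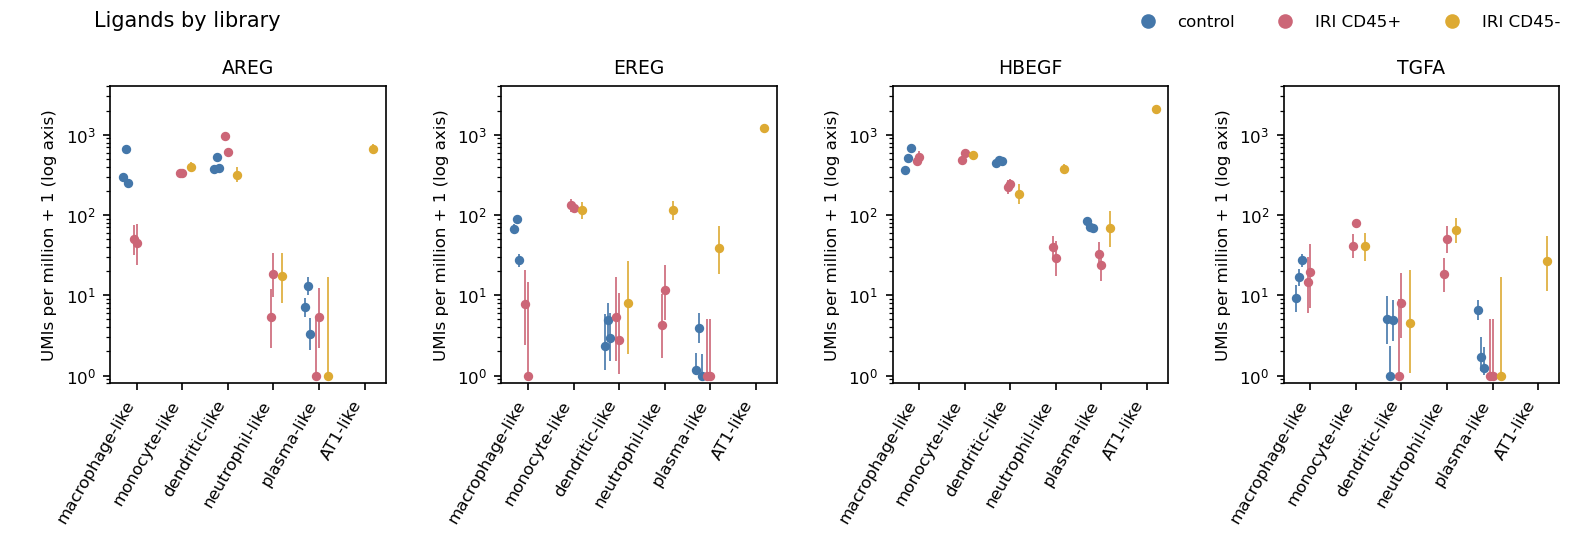
Level of the 4 ligands in CPM + 1 (log axis) in myeloid, plasma- and AT1-like cells; each point is 1 library with its exact Poisson 95% interval, and classes with fewer than 20 cells have no point. AREG and EREG of the IRI CD45+ libraries lie below the controls in macrophage-like cells, and HBEGF overlaps there.

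Among control immune classes EREG, which binds EGFR and ERBB4, was highest in macrophage-like cells, at 65.6, 88.5 and 26.5 CPM, and 72.0%, 76.9% and 80.0% of a control library's EREG UMIs lay in that class. The IRI CD45+ macrophage-like cells had 6.75 and 0 CPM, 3 UMIs in all, and the 0 allows up to 11.06 CPM. Pooled, the level was 0.071 (0.0146 to 0.208, counting interval) of that in the controls. edgeR gave a log2 change of -3.87 ± 1.05 (adjusted p = 0.0334). The adjusted p was 0.274 without IRI CD45+ 1 and 0.283 without IRI CD45+ 2. With the top 6% of doublet scores removed it was 0.0596, and with cluster 13 alone 0.0025. Within control macrophage-like cells EREG was at 0 in 3 of 4 cluster 16 values and in the CXCL9 part of control 1, and at 93.1, 178 and 65.0 in the JCHAIN part. Monocyte-like cells of the graft held 132 and 120.5 CPM and had a UMI in 44.8% and 34.3% of cells. Dendritic-like cells were at 1.34 to 4.38 in every control and IRI CD45+ library.

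In the injured epithelium EREG was present in every class. AT1-like cells had 1210.5 CPM (1083 to 1349) and a UMI in 50.9% of cells (44.9 to 56.8). Ciliated-like cells had 229, AT2-like cells 176 (171 to 182), secretory-like cells 115 and basal-like cells 65.6. AT2-like cells, by number, held 63.1% of the library's EREG UMIs. The lowest classes of that library were mast/basophil-like cells (22 cells) with no UMI, fibroblast-like cells at 3.65 (1 UMI) and dendritic-like cells at 7.14 (2 UMIs). Ciliated-like cells were the epithelial class that could be compared: 112, 115 and 15.3 CPM in the controls, from 24, 49 and 20 cells, lay below the 229 of the IRI CD45- library. The rise was 1.504 ± 0.51 (adjusted p = 0.0212), with 19.7% of genes called. It missed the threshold without control 1 (1.81, adjusted p = 0.0579) and without control 2 (1.77, adjusted p = 0.0830), with DESeq2 (adjusted p = 0.352) and with thinned sums (adjusted p = 0.147). In endothelial-like cells 1 UMI in the controls stood against 72 in the graft (88.9 CPM), a ratio of 95.5 with a counting interval of 16.6 to 3823 (adjusted p = 8.47e-08; 29.2% of genes called). SFTPC stood at no more than 22.8 CPM in the control cells and at 50203 in those of the graft, and EREG per 1000 SFTPC UMIs was 1.77 there and 1.49 in AT2-like cells. Without the part of these cells richest in SFTPC, EREG rose by 5.12 instead of 6.39, with an adjusted p of 0.0361. Neutrophil-like cells had 113 CPM among CD45- cells but 3.25 and 10.6 among CD45+ cells; SFTPC stood at 56120 CPM in the former cells.

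HBEGF, which also binds EGFR and ERBB4, had UMIs in every class and library with at least 20 cells. Macrophage-like cells had 358, 517 and 676 CPM in controls and 468 and 534 in the IRI CD45+ libraries, all within the control range. The log2 change of -0.08 ± 0.25 did not pass the test. A UMI was found in 60.1%, 65.8% and 78.7% of control and 59.5% and 69.7% of IRI cells. In the controls the CXCL9 and FOLR2 part was high in HBEGF, at 422, 842 and 1556 CPM, the same part that was low in AREG. Monocyte-like cells had 485 and 589 CPM, and 563 in the IRI CD45- library.

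In the other immune classes HBEGF was lower in the IRI CD45+ libraries, without overlap, in 7 of 7. Dendritic-like cells fell from 438, 479 and 466 to 221 and 240.1 CPM (log2 -1.05 ± 0.15, adjusted p = 6.88e-05). NK-like cells had an even level of 218, 225 and 224 in controls and 72.6 and 72.1 in IRI (-1.94 ± 0.12, adjusted p = 1.23e-10). The NK-like share with a UMI was 20.4% to 24.1% in controls and 14.3% and 14.8% in IRI, where cells were deeper; thinned to 1000 UMIs it was 13.8% to 14.0% against 7.22% and 6.19%. T-like cells fell from 58.4, 56.8 and 69.2 to 10.8 and 27.8 (-1.77 ± 0.31, adjusted p = 0.00054). The remaining falls were -2.67 ± 0.44 in plasmacytoid dendritic-like cells (25.3% of genes called), -2.08 ± 0.57 in mast/basophil-like cells (27.7% called), -1.91 ± 0.24 in plasma-like cells (35.7% called) and -0.79 ± 0.23 in B-like cells. The B-like call was lost without IRI CD45+ 1 (-0.64, adjusted p = 0.0846). Plasma-like cells, taken as the free RNA reference, carried HBEGF in 26.2% to 29.4% of control and 16.1% and 17.9% of IRI CD45+ cells. Thinned to 1000 UMIs, these shares were 7.82% to 8.29% and 4.396% and 2.70%. NK-like cells lay above them once thinned. T-like (4.04% to 5.36% of control cells) and B-like cells (2.71% to 4.26%) lay below. Plasma-like cells were thus not the lowest class for HBEGF, and as a reference they do not tell these levels apart from background. Their own HBEGF fell by -1.91, close to the -1.94 of NK-like and -1.77 of T-like cells. Whether free RNA or RNA of the plasma-like cells themselves fell was not tested.

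The highest HBEGF levels of the series were outside the immune classes tested. AT1-like cells held 2120 CPM (1950 to 2301), with a UMI in 65.3% of cells (59.4 to 70.8). An unnamed IRI part between monocyte- and neutrophil-like cells, led by LTF, IL1R2 and TGM3 (120, 240 and 132 cells), held 2088 and 2296 after the CD45+ sort, and 1640.4 after the CD45- sort. That part carried 41.6% and 34.8% of the HBEGF UMIs of the IRI CD45+ libraries. Basal-like cells had 379 CPM, AT2-like cells 307 and secretory-like cells 249. Ciliated-like cells rose from 134, 106 and 30.6 to 286 (1.72 ± 0.49, adjusted p = 0.0051), a call lost without control 2 (1.77, adjusted p = 0.0564) and with DESeq2 (adjusted p = 0.194). Lymphatic endothelial-like cells fell from 186, 219 and 307 to 113 (-1.08 ± 0.36, adjusted p = 0.0168; 29.6% of genes called), a call lost without control 3 (-0.84, adjusted p = 0.109) and with DESeq2 (adjusted p = 0.229). Endothelial-like (170.2, 277 and 455 against 262), fibroblast-like (140.004, 168 and 112 against 153) and smooth muscle/pericyte-like cells (107, 240.4 and 123 against 128) did not pass the test, each within the control range.

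TGFA was sparse. Its highest level in control lung was in macrophage-like cells, at 8.25, 15.7 and 26.3 CPM, which overlapped the 13.5 and 18.4 of the IRI CD45+ libraries (log2 -0.17 ± 0.63, not past the test). Within this class TGFA varied between parts. Among control parts with at least 20 cells it was highest, at 91.1 CPM, in the part of control 2 led by ZHX2 and CCSER1 (37 cells). In cluster 16 it stood at 40.3 (24 cells) and 3.66 (34 cells) in parts of control 2, and at 56.4 and 58.8 in those of control 3. A part of cluster 16 lists BTC, a further EGF ligand (betacellulin), among its leading genes. In the graft TGFA was highest in monocyte-like cells (40.4 and 78.8, and 40.3 in the IRI CD45- library) and neutrophil-like cells (17.4 and 49.5, and 63.7). AT2-like cells had 27.7 CPM (25.5 to 29.9), AT1-like cells 26.0 and secretory-like cells 25.7. A UMI was found in 5.35% of AT2-like cells (4.87 to 5.87), against 0 of 67 plasma-like cells in that library. The exact interval of that 0 reaches 5.36%, so these shares are not told apart.

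Among the named classes of the graft EGFR was highest in AT2-, AT1-, basal- and secretory-like cells. In the IRI CD45- library AT2-like cells had 196 CPM (189.9 to 202) and AT1-like cells 193 (144 to 253), which overlap. Basal-like cells followed with 153 (135 to 173) and secretory-like cells with 124 (111 to 138). Ciliated-like cells, with 82.4 (73.5 to 92.2), lay below endothelial- and fibroblast-like cells (both 106). A UMI was found in 30.1% of AT2-like (29.1 to 31.1), 29.8% of basal-like, 29.6% of secretory-like, 17.7% of ciliated-like and 11.2% of AT1-like cells, the last at a median depth of 803 UMIs against 2141 to 2737 in the other 4. T- and B-like cells of the library had a UMI in 2.18% and 4.09% of cells (median depth 1719 and 2193 UMIs). Thinned to 500 UMIs the shares were 10.2% in AT2-like, 8.91% in basal-like, 7.61% in secretory-like, 6.67% in AT1-like and 4.21% in ciliated-like cells, against 0.97% and 0.72% in T- and B-like cells. NK- and neutrophil-like cells of that library had 1.71% and 2.05%. Endothelial- and fibroblast-like cells there had 5.07% and 4.50%, above the ciliated-like share. In control 1 the 20 AT2-like cells had 2 EGFR UMIs (40.2 CPM, 4.87 to 145). Ciliated-like cells of the controls had 22.4, 69.0 and 61.1 CPM, below the 82.4 of the graft, and did not pass the test (0.86 ± 0.62, adjusted p = 0.363).

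**Figure D4:**
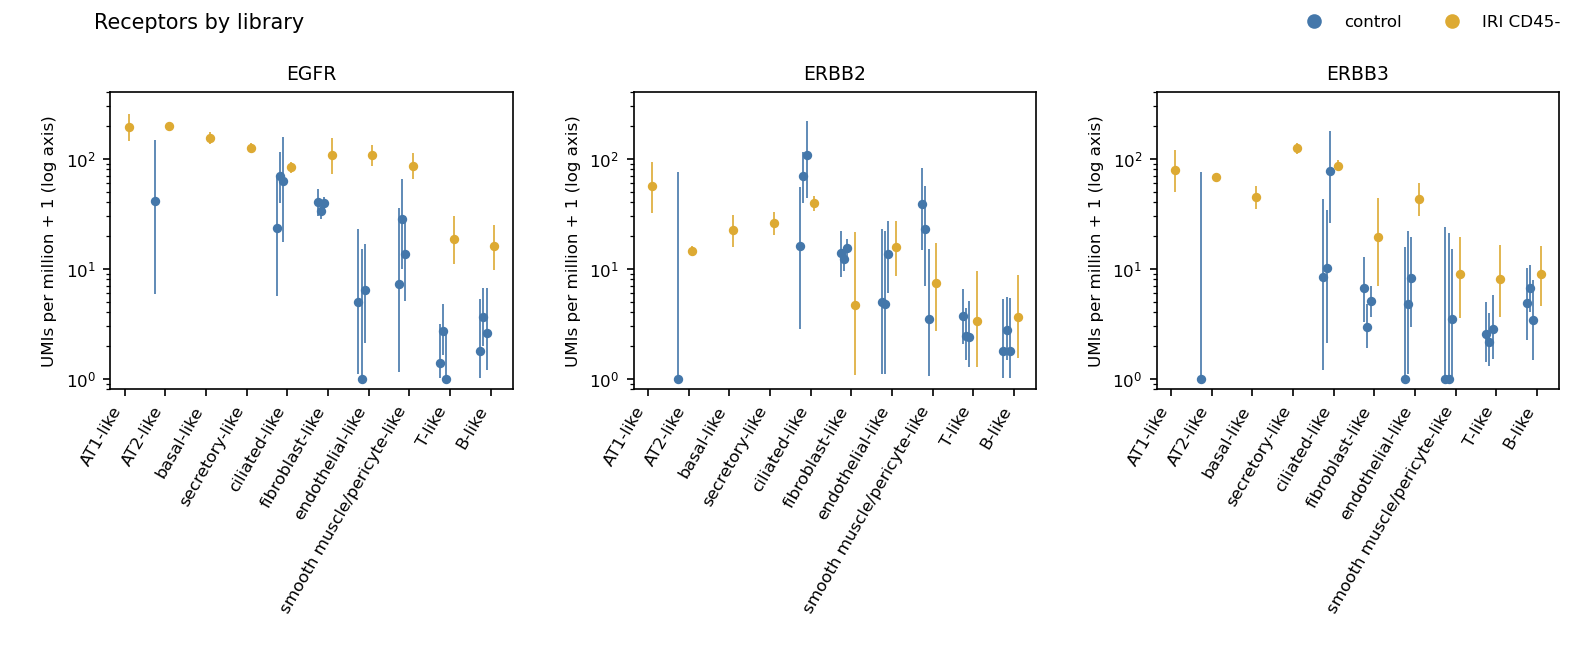
Level of the 3 receptors in CPM + 1 (log axis) in epithelial, stromal, T- and B-like cells; each point is 1 control library or the IRI CD45- library with its exact Poisson 95% interval. EGFR of the graft lies above all controls in fibroblast-, endothelial- and smooth muscle/pericyte-like cells, and also in T- and B-like cells.

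EGFR levels of the stromal and endothelial-like classes were also higher in the graft library. How much of this came with free AT2 RNA was not tested. Fibroblast-like cells had 39.1, 32.1 and 38.6 CPM in the controls and 106 (70.9 to 152) in the IRI CD45- library. The rise was 1.72 ± 0.31 (adjusted p = 0.00083), with 25.7% of genes called and a median change of -0.82 over all genes. The share of cells with a UMI was 14.3%, 11.7% and 12.3% in controls and 11.7% in the graft, at unequal median depths of 3544 to 4425.5 and 1731 UMIs. Thinned to 500 UMIs it was 2.46%, 1.57% and 1.35% against 4.50%, and thinned to 1000 UMIs 5.33%, 3.04% and 3.62% against 5.56% (90 of the 111 graft cells). These cells came from cluster 10 in the controls and from a part led by IL6 and PTX3 in the graft. In controls fibroblast-like cells held 56.5%, 68.1% and 71.0% of a library's EGFR UMIs. Smooth muscle/pericyte-like cells rose from 6.27, 27.3 and 12.6 to 85.6 (2.67 ± 0.65, adjusted p = 0.00054; 28.4% of genes called), a call lost with DESeq2 (adjusted p = 0.118) and with thinned sums (adjusted p = 0.269). Endothelial-like cells rose from 3.96, 0 and 5.38 to 106 (4.97 ± 0.65, adjusted p = 8.27e-08); the 0 allows up to 11.4. Lymphatic endothelial-like cells had 1 UMI in the controls and 16 in the graft (72.2 CPM), a ratio of 82.7 with a counting interval of 12.8 to 3468 (adjusted p = 0.0024).

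The AT2 gene SFTPC moved with some of these values. EGFR per 1000 SFTPC UMIs was 1.65 in AT2-like cells themselves, 1.06 in B-like, 1.58 in NK-like, 2.12 in endothelial-like and 3.02 in T-like cells. It was higher in lymphatic endothelial-like (6.64), smooth muscle/pericyte-like (8.41), AT1-like (9.37), fibroblast-like (11.0) and secretory-like cells (17.5). Within the endothelial-like cells, the part of 165 cells with the most SFTPC (84960 CPM) had EGFR at 174 CPM. The part of 228 cells with SFTPC at 13711 had 39.6, and the part of 76 cells with SFTPC at 7142 had no EGFR UMI, which allows up to 20.9. Without the first part EGFR was too low to be tested. In T- and B-like cells, which define background here, EGFR was at 17.7 and 14.99 CPM in the IRI CD45- library against at most 2.64 in the controls. Other immune classes of that library had more, with 36.8 in NK-like, 30.6 in monocyte-like and 47.3 in neutrophil-like cells. AT2 markers summed to 6386 and 15542 CPM in T- and B-like cells, against 25837, 13518 and 62233 in those classes. T-like cells are thus a low reference for free AT2 RNA. How much of a class's EGFR came with free AT2 RNA was not tested beyond these values. In the IRI CD45+ libraries EGFR was at or below 4.804 CPM in every named class but macrophage-like cells (13.5 and 11.06 against 1.13, 4.30 and 13.02 in controls, not past the test).

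**Figure D5:**
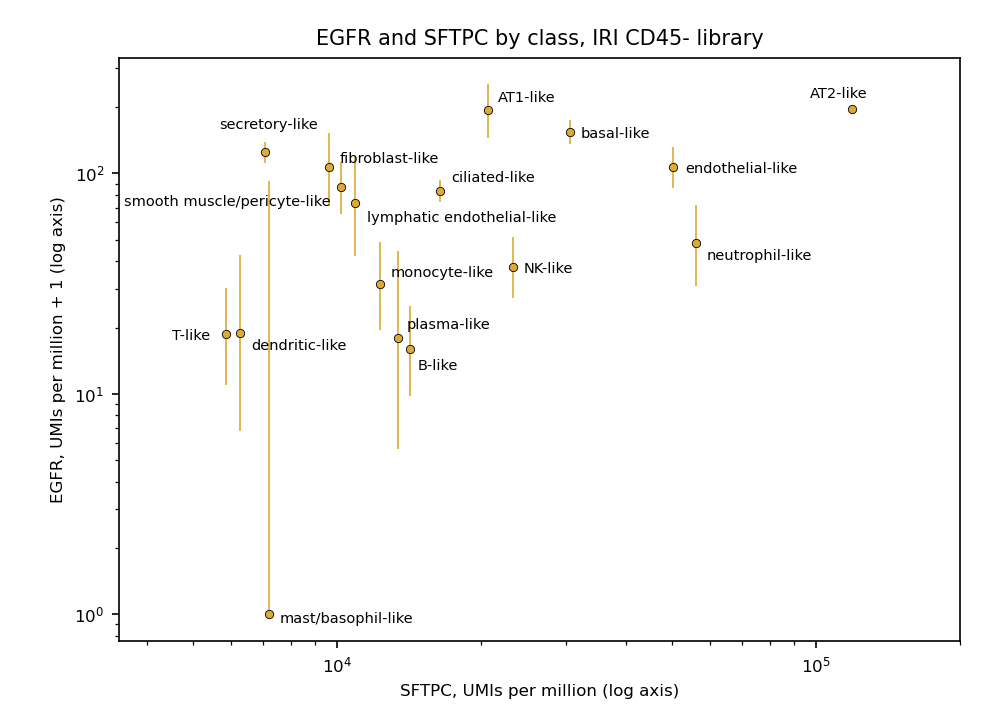
EGFR (CPM + 1) against SFTPC (CPM), both on log axes, for the named classes of the IRI CD45- library; bars are exact Poisson 95% intervals. AT2-like cells are highest in both, endothelial-like cells reach 106 for EGFR at 50203 for SFTPC, and secretory- and fibroblast-like cells reach 124 and 106 for EGFR at 7078 and 9629 for SFTPC.

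ERBB2, the partner receptor, was highest in ciliated-like cells in controls 2 and 3, but not in control 1. The ciliated-like values of the 3 controls were 14.9, 69.0 and 107 CPM, with a UMI in 8.33%, 24.5% and 25.0% of 24, 49 and 20 cells. The level there stood against 38.3 (32.3 to 45.1) in the graft, within the control range (log2 -0.43 ± 0.74, not past the test). In the IRI CD45- library AT1-like cells had 55.7 (31.2 to 91.9), secretory-like cells 24.9, basal-like cells 21.3 and AT2-like cells 13.4. In that library a UMI was found in 10.1% of ciliated-like, 4.56% of AT1-like and 3.15% of AT2-like cells, against 0.48% and 0.72% of T- and B-like cells. Thinned to 500 UMIs, it was found in 0.74% of AT2-like, 0.68% of neutrophil-like and 0.81% of endothelial-like cells. Fibroblast-like cells held 13.02, 11.4 and 14.4 CPM in controls and 1 UMI (3.65) in the graft, and did not pass the test (-1.64 ± 1.04, adjusted p = 0.283). In smooth muscle/pericyte-like cells 37.6, 21.9 and 2.51 in controls stood against 6.34, also not past it.

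Among the named classes of the graft, ERBB3 was highest in secretory-like cells, with an interval that overlaps that of AT1-like cells. Secretory-like cells of the graft had 123 CPM (109.9 to 137), ciliated-like cells 85.4 (76.3 to 95.3), AT1-like cells 78.0 (48.3 to 119), AT2-like cells 67.4 (64.0 to 70.9) and basal-like cells 43.7. A UMI was found in 25.1% of secretory-like, 18.2% of ciliated-like and 12.98% of AT2-like cells, against 1.21% of T-like and 2.16% of B-like cells. NK- and neutrophil-like cells of that library had shares of 2.35% and 4.10%. An unnamed cluster of 96 cells led by DNAJC12, HPGD, IL17RB and ALOX5 held 265 CPM. Ciliated-like cells of the controls had 7.46, 9.20 and 76.4, 8 UMIs in all, and the rise to 85.4 was 2.16 ± 0.79 (adjusted p = 0.0359). Without control 1 it was 1.84 (adjusted p = 0.169), without control 2 1.47 (adjusted p = 0.430) and without control 3 3.46 (adjusted p = 0.00061). The call was also lost with DESeq2 (adjusted p = 0.502) and with the top 6% of doublet scores removed (adjusted p = 0.181). In endothelial-like cells ERBB3 rose from 0, 3.80 and 7.17 to 42.0 (3.37 ± 0.95, adjusted p = 0.0056), a call lost without control 3 (4.44, adjusted p = 0.0880), with DESeq2 (adjusted p = 0.1402) and with the top 6% of doublet scores removed (adjusted p = 0.0571). The 0 allows up to 11.9, and 28 of the 34 UMIs came from the part richest in SFTPC. Fibroblast-like cells (5.70, 1.97 and 4.06 against 18.3) missed the threshold at an adjusted p of 0.0669 and passed it without control 1 (2.72, adjusted p = 0.0305).

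Outside the epithelium, ERBB3 was highest in dendritic-like cells in the control and IRI CD45+ libraries, at 14.8, 43.4 and 22.9 CPM in controls and 24.1 and 45.6 in the IRI CD45+ libraries, which overlap (0.29 ± 0.46, not past the test). In the controls it was concentrated in the part led by FSCN1 and S1PR1, at 31.1, 209 and 90.5. In the IRI CD45- library dendritic-like cells had 17.8 (5.79 to 41.6), below the 42.0 of endothelial-like and 30.8 of neutrophil-like cells, with overlapping intervals. After the CD45+ sort, ERBB3 in the neutrophil-like class was only 2.17 CPM (2 UMIs) and 0, the 0 allowing up to 5.31. AT2 markers summed to 62233 CPM in the CD45- neutrophil-like class and to 54841 in the endothelial-like one. How much of their ERBB3 came with free AT2 RNA was not tested. B-like cells had 3.89, 5.71 and 2.38 in controls and 7.03 and 3.54 in IRI CD45+, and the control values overlapped those of fibroblast-, plasmacytoid dendritic- and lymphatic endothelial-like cells.

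Ligand and receptor were seen together in some epithelial cells of the graft. With every cell thinned to 500 UMIs, any of the 4 ligands was found in 71.9% of AT1-like cells, any of the 3 receptors in 13.7%, and both in 7.37% (21 of 285 cells). In AT2-like cells the shares were 20.7%, 13.3% and 2.76%. Secretory-like cells had 19.97%, 15.7% and 3.30%, basal-like cells 20.9%, 8.46% and 1.34%, and ciliated-like cells 20.8%, 10.8% and 1.89%. AT1-like cells had the highest ligand share of these 5 classes and secretory-like cells the highest receptor share. Among cells with a receptor UMI, a ligand was found in 53.8% of AT1-like, 20.8% of AT2-like and 21.1% of secretory-like cells. In basal- and ciliated-like cells it was found in 15.8% and 17.5%. These shares lay near or below those of all cells of each class, so the values show no joint detection beyond the separate shares. T-like cells had 1.69%, 1.69% and 0%, the 0 of 413 cells allowing up to 0.73%.

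The other genes of the pathway were read from 5 lists of 73 genes. In macrophage-like cells, negative regulators of the pathway included 6 of 14 tested that rose and 2 that fell: the MAP kinase phosphatases DUSP6 (131, 97.1 and 92.9 CPM against 313 and 538), DUSP4 and DUSP5 rose by 1.94, 1.94 and 1.02 on the log2 scale. Of the transcription targets 3 of 15 rose and 6 fell, with the AP-1 genes FOSL1 (2.75) and FOSL2 (2.04) up and JUN (-1.29) down. Of the shedding genes 1 of 5 rose, the ligand sheddase ADAM17 (41.2, 42.5 and 46.2 against 74.3 and 92.1; 0.88 ± 0.26, adjusted p = 0.0269), and 2 fell, among them the related protease ADAM10 (-1.39). In the adaptor and kinase list 2 of 22 rose (GRB2 by 1.08, PTPN11 by 1.00) and 1 fell (PIK3CA by -3.82). List medians were 0.46 for feedback genes, -0.35 for targets, -0.32 for shedding and 0.26 for adaptors, against -0.28 over all genes of the class. Of all genes tested there 26.1% were called, against which the adaptor count of 3 in 22 is low and those of feedback genes and targets are higher. Of the family's other ligands and ERBB4, 4 were tested and 2 fell, ERBB4 and NRG3, which were at 0 in both IRI CD45+ libraries as in most IRI classes.

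In dendritic-like cells 2 of 12 feedback genes rose (DUSP4 by 1.74, DUSP6 by 1.13) and none fell, while 6 of 21 adaptors rose and 1 fell (PIK3R1 by 1.68, GRB2 by 1.31, PIK3CA by -2.35). ADAM17 (1.03) and its regulator RHBDF2 (1.40) rose. Of 15 targets 2 rose (IER3 by 1.97, FOSL2 by 0.97) and 2 fell. In this class 34.7% of all genes were called, so the counts of these 3 lists lie at or below the background. Among the lymphoid classes, targets fell in 7 of 15 tests in T-like, 10 of 14 in NK-like and 8 of 14 in B-like cells, with JUNB falling by 1.83, 2.67 and 1.59. In these classes 53.3%, 59.5% and 46.7% of all genes were called in either direction. Falls alone were 3165 of 11148 genes in T-like, 3312 of 10520 in NK-like and 2502 of 9937 in B-like cells.

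Structural classes were compared with the lone IRI CD45- library. In ciliated-like cells, with 19.7% of all genes called, 5 of 11 targets rose and none fell, among them IER3 (by 2.86 on the log2 scale) and PLAUR (by 3.18), and 3 of 11 feedback genes rose (DUSP5 by 2.66, DUSP6 by 1.80, DUSP4 by 1.84) with 1 fall. In endothelial-like cells, with 29.2% called, 7 of 15 targets rose and 1 fell, and 6 of 14 feedback genes rose and 1 fell. SPRY2, an inhibitor of receptor signalling, rose there by 4.26. In fibroblast-like cells, with 25.7% called, 5 of 17 targets rose and 5 fell; FOSL1 rose by 7.04 and PLAUR by 3.12. Feedback genes there rose in 4 of 16 cases (SPRY2 by 3.04, DUSP5 by 2.31) and fell in 2, and ADAM17 rose by 2.33. Over all 5 structural classes 26 of 71 target tests rose and 13 fell, and over the 8 immune classes 14 of 107 rose and 46 fell. Of all gene tests in these classes 26.6% and 41% were called.

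Genes whose levels ran most like those of a member were found by Pearson's r of log2(CPM + 1) across 65 class sums of 20 classes, among 9935 genes; the sums share libraries and depth, and r is given as a description. For AREG these were GPR31, SLAMF9 and RASSF4 (all 0.76), and for EREG NPC1 (0.90), ANKRD22 and CSF3 (both 0.85). For HBEGF they were LTBR (0.77), MYOF and ANXA5 (both 0.76), and for TGFA the myeloid genes S100A8 (0.74), IL1R2 (0.72) and CCR1 (0.71). EGFR ran with the epithelial genes GPRC5A (0.91), S100A14 (0.91) and PACSIN3 (0.89). ERBB3 ran with the desmosome gene DSP (0.80), PLEK2 (0.80) and the epithelial adhesion gene EPCAM (0.78). ERBB2 had weaker partners, MECOM (0.72), C4orf19 and KAZN (both 0.68). Among the members themselves EREG and TGFA had the highest r (0.70), followed by EREG and EGFR (0.66).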

How the data were processed

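Each deposited matrix is a table of UMI counts, one value per gene and cell without normalization, and was written by PISA per the file headers. The submitters' processing notes name Seurat 5.5.3, R 4.2.2 and the pig genome build Sscrofa11.1, with the aligner and the annotation not given in the sources used here. Libraries held 19098567 to 40647380 UMIs. No normalized unit was used.

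Cells with at least 500 UMIs, 200 genes and at most 20% mitochondrial UMIs were kept (Python 3.11.15, scanpy 1.11.5, scipy 1.17.1). As the IRI libraries list no mitochondrial gene, the mitochondrial limit, also that of the stricter filter, acted on control cells only. Scrublet called 0 to 41 doublets per library, too few to have worked. Cells were clustered (2000 variable genes without the members and pathway lists, 30 components, 15 neighbours, Leiden resolution 1.0, parts at 0.5) and named from markers of 22 classes. For each class, sums over libraries with at least 20 cells went into edgeR 4.0.16 under R 4.3.3 (filterByExpr, TMM factors, robust quasi-likelihood test, Benjamini-Hochberg adjustment, threshold 0.05); values per library are without TMM scaling. The test was checked on simulated data. Alternatives were DESeq2 1.42.0, RLE factors, no filter, each library left out, a replicate block, stricter cell filters, finer clustering (1.5), thinned sums and, added after seeing the data, removal of the top 6% of doublet scores, thinned sums for the structural classes, cluster 13 alone, omission of 1 endothelial-like part and the test of macrophage- against dendritic-like changes.

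The members and lists were chosen with earlier results of these data known. Genes named are the 7 members, up to 3 called genes with the smallest p per list and class, and the 3 genes most like each member; 1 gene so chosen is not reported here. Genes leading a cluster describe it and are no result. Cell names are serial numbers, so shared barcodes could not be counted. Where a value is 0, the stated limit is 3 counts unless an exact interval is named.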

Additional observations from a re-analysis of the deposited data

Results flagged for a closer look

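AREG changed differently in macrophage-like and dendritic-like cells. The difference between the IRI CD45+ over control changes of the 2 classes, macrophage-like minus dendritic-like, was -3.92 on the log2 scale, tested as an interaction of class and group with the library as a term, a test chosen after seeing the data. AREG fell in all IRI CD45+ macrophage-like sums and rose in all IRI CD45+ dendritic-like sums. Dendritic-like cells of the IRI CD45- library, at 318 CPM, lay below all controls. The call of the macrophage-like fall was lost with either IRI CD45+ library left out. Most IRI CD45+ cells of both classes lay in cluster parts that held no control cell.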

How the results depend on the processing

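Of the 23 changes called, 12 were called under every alternative fitted and 11 were lost under at least 1, always with the same direction. Among the 12, EGFR in endothelial-like cells had no value without the part richest in SFTPC, where it was too low to be tested. EGFR in lymphatic endothelial-like cells, also among them, was fitted under 7 alternatives, against 9 for HBEGF in that class. The number of called pairs in the immune classes was 13, and 9 to 17 under all alternatives (9 to 14 with a library left out). In the structural classes it was 10, and 7 to 10 with a control left out; DESeq2 called 3, and 6 were called with sums thinned to the smallest. DESeq2 lost, among others, EGFR in smooth muscle/pericyte-like cells (adjusted p = 0.118), HBEGF in mast/basophil-like (0.0601) and B-like cells (0.0706) and AREG in T-like cells (0.0561). The replicate block gave 14 calls in the immune classes, adding AREG in plasma-like cells (-2.62, adjusted p = 0.0120). Whether equal replicate numbers mark pairs is not known. The deviations of controls 1 and 2 and of IRI CD45+ 1 and 2 correlated at -0.053 to 0.0688 over 8 classes. With so few libraries and with injury and sort changed together, this cannot exclude shared animals. Pairs that did not pass the test changed sign as follows (log2). ERBB3 in B-like cells was 0.10, -0.21 with the block and -0.40 to 0.50 with a library left out. ERBB3 in dendritic-like cells was 0.29, and -0.31 to 0.81 with a library left out. TGFA in macrophage-like cells was -0.17, 0.44 with the block and -0.43 to 0.35 with a library left out. HBEGF in macrophage-like cells was -0.08, 0.19 with the block, 0.0043 with cluster 13 alone and -0.24 to 0.20 with a library left out. HBEGF in endothelial-like cells was -0.03, 0.046 with RLE factors, 0.13 by DESeq2, 0.10 without a filter and -0.27 to 0.42 with a control left out. HBEGF in smooth muscle/pericyte-like cells was -0.07, 0.0747 by DESeq2, 0.15 without a filter, 0.19 with finer clustering and -0.34 to 0.31 with a control left out. With the top 6% of doublet scores removed, AREG was -0.22 in ciliated-like cells (0.30 before) and 1.80 in fibroblast-like cells (-0.17 before). The cause was not tested. Over all genes DESeq2 called 419, 906, 658 and 694 in ciliated-, endothelial-, lymphatic endothelial- and smooth muscle/pericyte-like cells, against 1029, 2196, 1882 and 1763. Shares of cells moved beyond their interval in 60 of 122 values thinned to 1000 UMIs. Ciliated-like cells under the stricter filter, and fibroblast- and lymphatic endothelial-like cells under finer clustering, had too few libraries to be run.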
